A study of Mus musculus with 5 samples.

Results

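Translation initiation factors are the proteins that bring a messenger RNA, the initiator tRNA and the ribosomal subunits together before protein synthesis starts. Their genes were followed in bulk RNA-seq of prostate tumors from castrated and intact TripleTg mice. The genes were taken by symbol, as every row of the deposited count table that begins with Eif and a digit from 1 to 6, without the Eif2ak kinases. This rule used no expression value and gave 52 of 24527 rows. They comprised 14 subunits of eIF3, 11 factors of the eIF4 group, 4 eIF4E-binding proteins, 9 subunits of eIF2 and eIF2B, 13 other initiation and recycling factors, and 1 row, Eif2c5, whose symbol belongs to the older naming of the Argonaute family and which had 0 counts in every sample.

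The 5 tumors came from 3 castrated and 2 intact mice, and all 5 mice carried the same alleles, hHGFtg, H11 hMET/+, Ctnnb1 L(Ex3)/+ and PB Cre4. Human HGF is thus made throughout the body, whereas human MET and stabilized β-catenin are switched on by Cre from the probasin promoter in prostate epithelium, also in the intact controls. Castration took place at 4 months and tissue was collected at 8 months, at the same age as the intact mice. The study asked how castration alters the transcriptome of tumors in this model, whose background was mixed, and the tissue was checked under the microscope to hold tumor. Sequencing depth, as the total count per library, was 28015507 for castrated replicate 1, 18951782 for castrated replicate 2, 20492061 for castrated replicate 3, 21560355 for intact replicate 1 and 22853501 for intact replicate 2. The replicates are separate animals, and for most of these transcripts the spread between animals exceeded the counting error. In bulk tissue, fewer cells of a type and less RNA per cell cannot be told apart.

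Initiation begins when eIF2, loaded with GTP and initiator tRNA, joins the small ribosomal subunit together with eIF1, eIF1A, eIF5 and the large scaffold eIF3. The cap-binding complex eIF4F, built from the cap-binding protein eIF4E, the scaffold eIF4G and the RNA helicase eIF4A, then recruits the messenger RNA. Growth signals through mTOR release eIF4E from its binding proteins, and stress kinases that phosphorylate eIF2 block its recharging by eIF2B, so both steps are control points for protein synthesis in tumors.

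Intact replicate 2 stood apart from the other 4 libraries, which bears on all values below. The 76 cytosolic ribosomal protein genes summed to 132123 CPM (read counts scaled to library size by TMM) in this sample, against 45676 in intact replicate 1 and 43158, 38139 and 43877 in the castrated samples. Epithelial tissue was present in every sample, judged by the keratin gene Krt8. It measured 875, 777 and 1144 CPM in the castrated and 1155 and 661 CPM in the intact tumors. Other epithelial markers differed more between intact replicates 1 and 2. Krt5 measured 28.9 and 405 CPM, Krt14 14.3 and 139 CPM, Trp63 6.09 and 101 CPM, and Hoxb13 3.45 and 70.7 CPM. For these genes intact replicate 1 was the lowest and intact replicate 2 the highest of the 5 samples. Krt18, Epcam and Cdh1, like Krt8, were instead higher in intact replicate 1. Probasin (Pbsn), the secretory gene whose promoter drives Cre, was at or near 0 in all samples, with 5.21 CPM in intact replicate 2 as its highest value. The other 4 libraries did not form 1 cluster by condition. The chi-square per gene of the counts, over the tested genes, was 142 between castrated replicate 1 and intact replicate 1, 241 and 269 between castrated replicate 1 and castrated replicates 2 and 3, and 133 between castrated replicates 2 and 3. Results are given with and without intact replicate 2 where they rest on it.

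Of the 52 genes, 48 passed the filter of a CPM above 1 in at least 2 samples. The other 4 were Eif3j2, Eif4e1b, Eif4ebp3 and Eif2c5, none of which exceeded 1.22 CPM in any sample. When edgeR's quasi-likelihood test was adjusted by Benjamini-Hochberg over 14612 genes, 0 of the 48 were called at an adjusted p under 0.05 with an absolute log2 fold change above 1. The same was true of 0% of all genes tested, and the lowest adjusted p among the factors was 0.290. At an unadjusted p under 0.05, 1 factor was higher in castrated tumors (Eif4e3), where the background over all genes was 8.74%, and 4 were lower (Eif2s2, Eif2s1, Eif1a and Eif3e), or 8.33% against a background of 6.28%. These shares are near the background or under it. The factors at this p numbered 6 without castrated replicate 1, 2 without castrated replicate 2 and 1 without castrated replicate 3. Of all tested genes, 2378, 1094 and 1011 then passed it. By sign alone, 39 of 48 had lower values in castrated tumors (81.2%, against 52.1% of all tested genes), and the median log2 fold change was -0.29 against -0.03 over all genes. All castrated samples lay below both intact samples for 17 factors, or 35.4% against 16.1% of all genes, and above them for 3 factors (Eif4e3, Eif4ebp1 and Eif1b), or 6.25% against 17%. Without intact replicate 2, 35 of 48 were lower (49.3% of all genes then were), with a median of -0.17. Without intact replicate 1, 37 of 48 were lower (47.6% of all genes), with a median of -0.36.

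**Figure D1:**
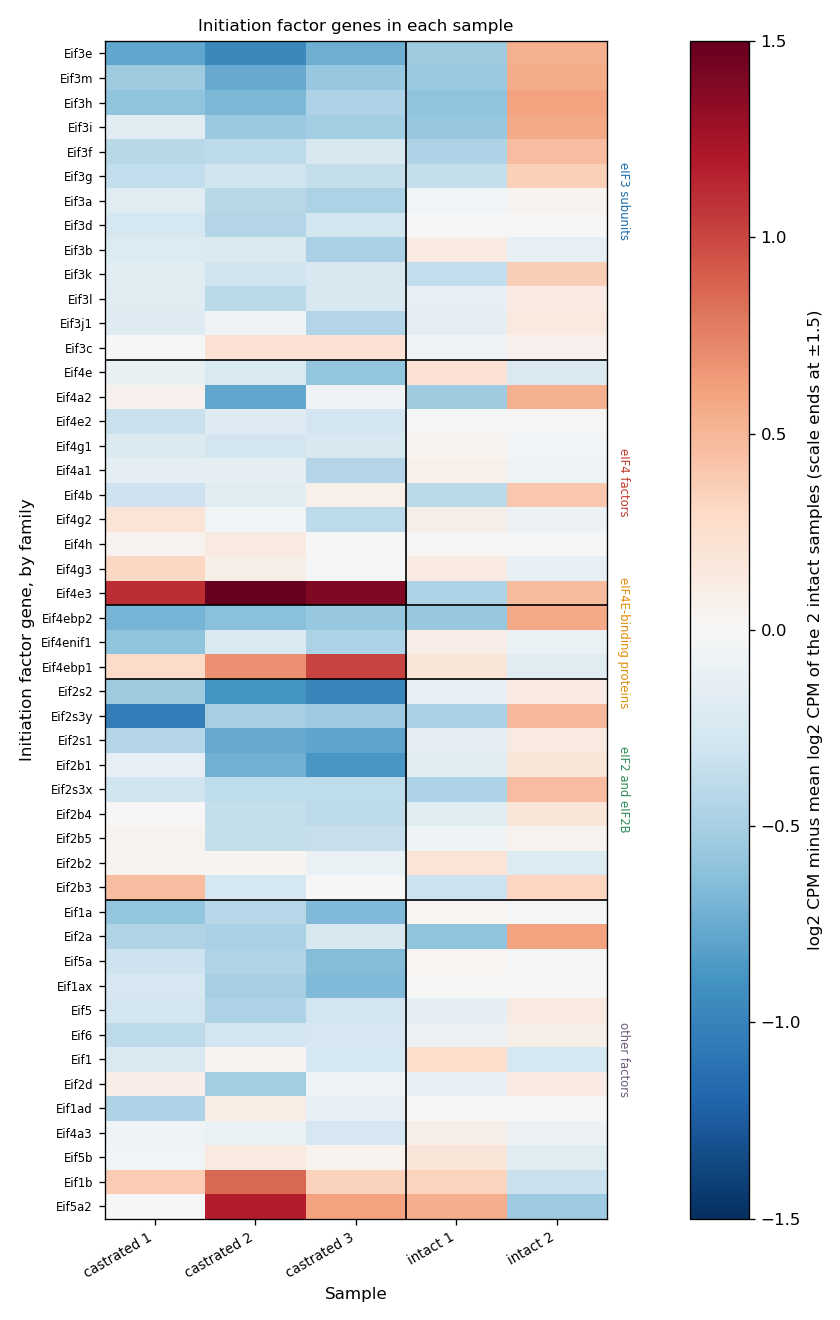
Color gives the log2 CPM of each of the 48 tested initiation factor genes (rows, grouped by family and ordered by fold change) in each of the 5 samples (columns), minus the mean log2 CPM of the 2 intact samples. Blue prevails in the castrated columns, while several eIF3 rows, Eif4ebp2, Eif2s3x, Eif2s3y and Eif2a are red in intact replicate 2 and blue in all other samples.

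As a share of all counts, the initiation factor genes took 1.07%, 0.965% and 0.948% in the castrated and 1.15% and 1.25% in the intact samples, so the groups did not overlap. Eif4g2, whose product resembles eIF4G without the eIF4E-binding part, alone held between 11.7% and 18.1% of the family's counts. Compared per gene length, as TPM (counts per kilobase, scaled to a fixed sum per sample) averaged over the 5 samples, Eif4a1 had the highest level at 841, followed by Eif1 at 730.5, Eif5a at 523, Eif3h at 507 and Eif3f at 503. The ranges of these neighbors in the order overlap, from 693 to 1055 TPM for Eif4a1 and from 521 to 992 TPM for Eif1. Eif5a2 and Eif2b3 were the least abundant of the tested genes, at 4.90 and 11.7 TPM.

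Many messenger RNAs of the translation machinery start with a 5′ terminal oligopyrimidine (TOP) tract, a C at the first base followed by pyrimidines, and are translated under mTOR control. The annotated start sites of the factors were therefore searched, on the transcribed strand, for a C followed by at least 4 bases that are C or T. RefSeq promoter sequences (GRCm38.p6) were held for 40 of the 52 genes, and 3 of these (7.5%) had such a tract exactly at the start, against 3.01% of 27025 genes. They were Eif3f, Eif2s3x and the silent Eif2c5. Anywhere within 10 bases of the start, 14 of the 40 genes had one (35.0%), which is near the 34.4% of all genes. The sequences below run 5′ to 3′ from 12 bases before the annotated start through the first 18 transcribed bases, with the tract in capitals. The first 3 are genes with a tract whose values were highest in intact replicate 2, and the other 4 are genes without one, all of them also highest in intact replicate 2, by more than 1 on the log2 scale over intact replicate 1 for Eif3m and Eif4ebp2 and by 0.26 and 0.24 for Eif2s1 and Eif2s2. Of the 13 tested genes with a tract within 10 bases of the start, 6 were highest in intact replicate 2, the 3 shown and Eif3l, Eif4b and Eif4e2. The other 7 were Eif3b, Eif4e, Eif4g1, Eif4enif1, Eif2b2, Eif2b5 and Eif1ad. For comparison, 26 of all 48 tested factors (54.2%) and 31.3% of all tested genes were highest in intact replicate 2.
Eif3f: gttctaggctctCTCTCTTTCTCggcaaga
Eif2s3x: ccgagcattttcCTTTTCTCTCCgagcaag
Eif2s3y: gaggccacagccaCTTCCTTCTTTCgtgag
Eif3m: tccggtcggcgtgtttctggatcggagcgt
Eif4ebp2: atcgcagcgggacgaccgggcgagagcagg
Eif2s1: tgggttgggcgaagcgcacgctgaggagct
Eif2s2: gtaaggttggctttactgtacgcctgcgct
These windows lie at chr7:108934403-108934432 on the plus strand (Eif3f), chrX:94212634-94212663 on the minus strand (Eif2s3x), chrY:1010583-1010612 on the plus strand (Eif2s3y), chr2:105017010-105017039 on the minus strand (Eif3m), chr10:61452652-61452681 on the minus strand (Eif4ebp2), chr12:78862060-78862089 on the plus strand (Eif2s1) and chr2:154892889-154892918 on the minus strand (Eif2s2). A match describes letters at an annotated start and does not show that a TOP message is made.

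eIF2 carries the initiator tRNA, and its α and β subunits separated the groups in every sample. Eif2s2, which encodes the β subunit (chr2:154871410-154892906), measured 229, 179 and 168 CPM in the castrated and 306 and 361 CPM in the intact samples. Every castrated sample was below both intact samples, with means of 192 ± 32.5 CPM (SD, n = 3) in castrated and 333 ± 38.8 CPM (SD, n = 2) in intact tumors. Its log2 fold change was -0.79 ± 0.23 (SE), with an unadjusted p of 0.0152 and an adjusted p of 0.290 in edgeR's quasi-likelihood test. Eif2s1 (chr12:78862072-78887010) encodes the α subunit, the target of the stress kinases. It measured 125, 99.8 and 97.5 CPM in the castrated and 155 and 185 CPM in the intact samples, again without overlap, and its log2 fold change was -0.66 ± 0.20 (SE, edgeR adjusted p = 0.300). Leaving out any single sample kept the log2 fold change of Eif2s2 between -0.94 and -0.70 and that of Eif2s1 between -0.78 and -0.57.

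The γ subunit, which binds GTP, has copies on both sex chromosomes. Eif2s3y, on chromosome Y, measured 91.5, 134 and 129 CPM in the castrated and 135 and 263 CPM in the intact samples, and Eif2s3x, on chromosome X, measured 71.2, 67.3 and 67.1 CPM in the castrated and 63.7 and 121 CPM in the intact samples. Both were high in intact replicate 2 alone, while intact replicate 1 lay close to the castrated samples. Per length, the ratio of Eif2s3x to Eif2s3y was 0.386, 0.250 and 0.258 in the castrated and 0.234 and 0.228 in the intact samples, so the Y copy was the more abundant throughout. As these copies are closely related in sequence, the counting could assign reads of one to the other, and the same holds for Eif1a with Eif1ax and Eif1 with Eif1b.

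eIF2B recharges eIF2 with GTP and has its own subunits. Eif2b1 measured 71.1, 46.8 and 42.0 CPM in the castrated and 68.1 and 87.5 CPM in the intact samples, with a log2 fold change of -0.55 ± 0.29 (SE). For the catalytic subunit Eif2b5 the values were 74.6, 55.7 and 56.2 CPM in the castrated and 69.2 and 74.2 CPM in the intact samples, and for Eif2b4 they were 36.3, 28.5 and 27.8 CPM in the castrated and 32.0 and 41.4 CPM in the intact samples. Castrated replicate 1 lay within or above the intact range for Eif2b1, Eif2b4 and Eif2b5. Eif2b2 had a log2 fold change of -0.02 and Eif2b3 one of 0.06 ± 0.35 (SE), the highest in the family. Eif2b3 measured 27.4, 16.6 and 19.8 CPM in the castrated and 15.9 and 25.0 CPM in the intact samples, and its sign turned without castrated replicate 1 (-0.17) or without intact replicate 1 (-0.21), and it was 0.38 without intact replicate 2. Over the 9 genes of eIF2 and eIF2B, 8 had lower values in castrated tumors, 2 of them at an unadjusted p under 0.05 in edgeR (22.2%, against 6.28% of all genes). Those 2, Eif2s1 and Eif2s2, did not pass this p without castrated replicate 2 or without castrated replicate 3. Without castrated replicate 1 both passed it, and so did Eif2b1. The median log2 fold change of the 9 genes was -0.43 (-0.69 without intact replicate 1 and -0.23 without intact replicate 2).

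**Figure D2:**
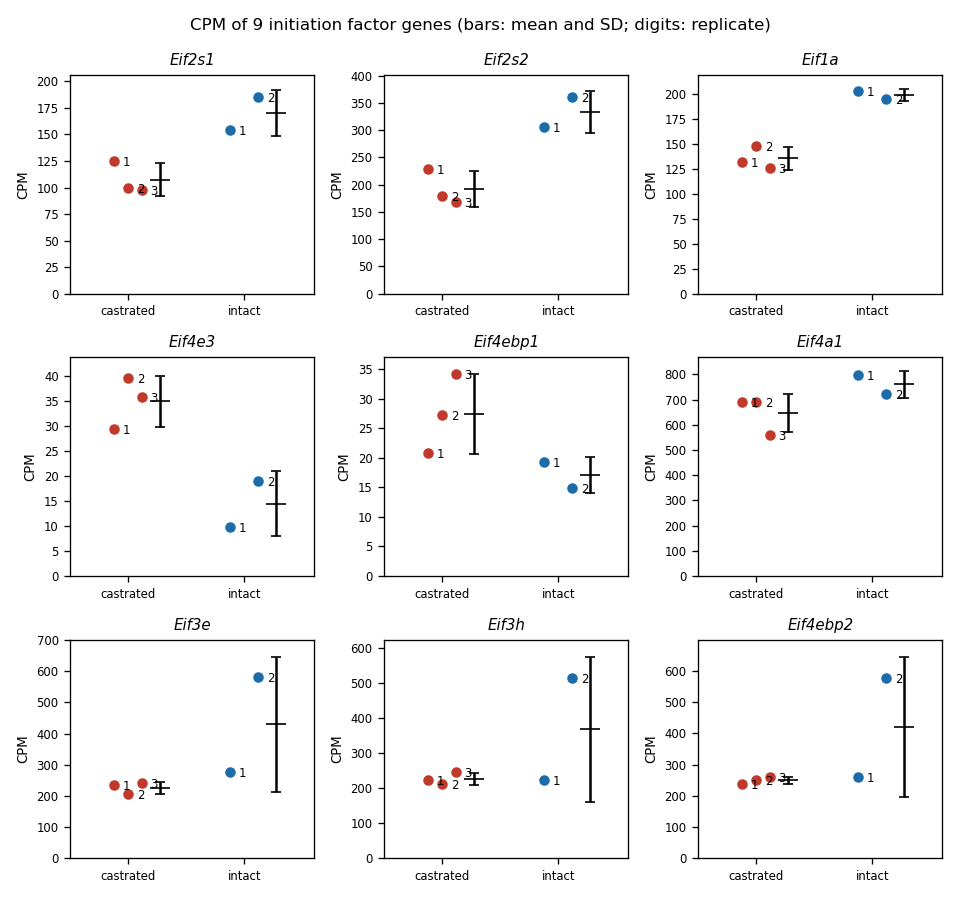
Each panel shows the CPM of 1 gene, with a numbered point for every castrated (red) and intact (blue) sample, and the mean with its SD beside them. The groups separate with close intact points for Eif2s1, Eif2s2 and Eif1a, Eif4e3 and Eif4ebp1 are higher in castrated tumors, and for Eif3e, Eif3h and Eif4ebp2 the intact mean is carried by replicate 2.

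eIF3 is the scaffold that holds the small subunit complex together and contacts eIF4G. Of its 13 tested genes, 12 had lower values in castrated tumors and 1 had a higher value, with a median log2 fold change of -0.35, but 11 of the 13 had their highest value in intact replicate 2. The median was -0.11 without intact replicate 2 and -0.59 without intact replicate 1. The subunits varied in how far the 2 intact samples differed from each other.

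Eif3e, Eif3h, Eif3i and Eif3m differed most between the intact samples. Eif3e (chr15:43250040-43282736) measured 234, 205 and 241 CPM in the castrated and 277 and 583 CPM in the intact samples. Its log2 fold change of -0.92 ± 0.35 (SE, edgeR unadjusted p = 0.0422, adjusted p = 0.322) was the lowest of all 48 genes, and it stood at -0.33 without intact replicate 2 and at -1.34 without intact replicate 1. For Eif3h, a neighbor of Eif3e in the complex that lies at chr15:51786563-51865461, the values were 223, 211 and 246 CPM in the castrated and 222 and 513 CPM in the intact samples. The log2 fold change of Eif3h was -0.70 ± 0.37 (SE), and it was -0.01 without intact replicate 2 and -1.16 without intact replicate 1, so its difference rested on the former sample. Eif3m gave 164, 141 and 160.5 CPM in the castrated and 162 and 349 CPM in the intact samples, and Eif3i gave 145, 110.0 and 113 CPM in the castrated and 109 and 239 CPM in the intact samples. Intact replicate 1 lay within or near the castrated range in both genes. The same order was seen with a smaller gap for Eif3f, Eif3g and Eif3k, whose values in intact replicate 2 were 528, 153 and 209 CPM against 276, 93.5 and 125 CPM in intact replicate 1.

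The subunits Eif3a, Eif3b, Eif3d and Eif3l behaved otherwise. Eif3a, the largest subunit, measured 476, 406 and 391 CPM in the castrated and 524 and 559 CPM in the intact samples, and Eif3b, which binds it, measured 249, 248 and 204 CPM in the castrated and 313 and 264 CPM in the intact samples. Eif3d, a subunit able to bind the cap of some messages, measured 139.9, 123 and 139 CPM in the castrated and 167 and 169 CPM in the intact samples. In these 3 genes all castrated samples lay below both intact samples, with log2 fold changes of -0.35, -0.30 and -0.32. The intact samples were close to each other for Eif3a and Eif3d, whereas for Eif3b they differed by more than the gap to castrated replicate 1. Eif3l, at 159, 136 and 152 CPM in the castrated and 165 and 196 CPM in the intact samples, also showed no overlap. Eif3c was the exception in sign, with 289.9, 338 and 339.6 CPM in the castrated and 279.6 and 305 CPM in the intact samples. Its log2 fold change was 0.14 ± 0.20 (SE). Eif3j1, the loosely bound subunit, had a log2 fold change of -0.23, but its row and that of Eif3j2 overlap over 25049 bases, so its counts are uncertain.

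**Figure D3:**
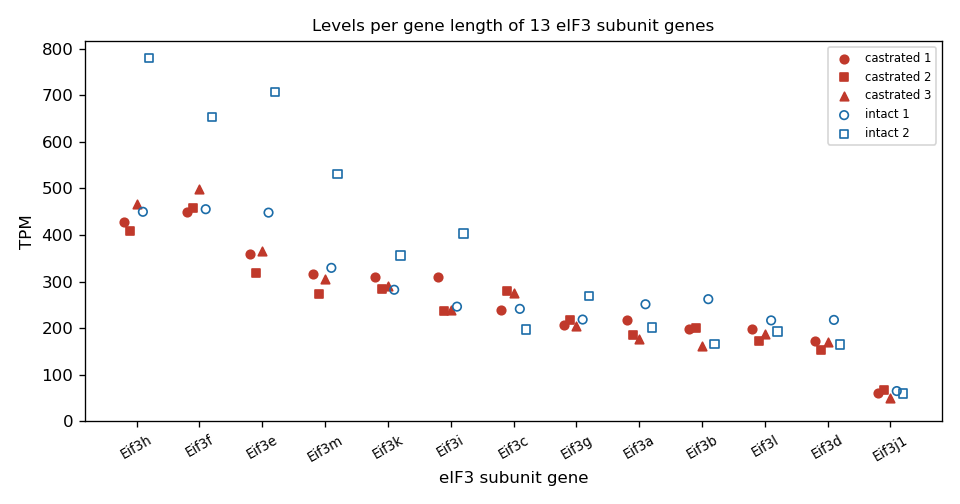
Levels per gene length (TPM, linear axis) are shown for 13 eIF3 subunit genes in each castrated (filled red) and intact (open blue) sample, ordered by mean level. Intact replicate 2 (open squares) lies far above the other samples for Eif3h, Eif3f, Eif3e, Eif3m and Eif3i, and within them or close to them for Eif3a, Eif3b, Eif3c, Eif3d, Eif3l and Eif3j1.

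Although eIF3 subunits act in 1 complex, their messages were not at equal levels. Among the genes plotted, Eif3j1 was the lowest in every sample, between 49.8 and 66.5 TPM. The highest was Eif3f in the 3 castrated samples and in intact replicate 1, between 448 and 499 TPM, and Eif3h in intact replicate 2, at 779 TPM. TPM is a share of a fixed sum, so the larger part taken by ribosomal protein messages in intact replicate 2 lowers the TPM of all other genes there.

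With all samples, the eIF4 factors, which recruit the message, had the smallest departure from 0 among the 3 main groups. Of 10 tested genes, 7 were lower in castrated tumors and 3 higher. The median log2 fold change was -0.21, and leaving out either intact sample gave -0.10. Without intact replicate 2 the eIF3 median was -0.11, so eIF3 and eIF4 then hardly differed. Eif4a1 (chr11:69666936-69672423), the main RNA helicase of initiation, gave 689.9, 691 and 559 CPM in the castrated and 799 and 722 CPM in the intact samples. All castrated samples lay below both intact samples, but by little, with a log2 fold change of -0.23 ± 0.26 (SE, edgeR adjusted p = 0.700). It was -0.13 without castrated replicate 3, -0.14 without intact replicate 1 and -0.35 without intact replicate 2. Its paralog Eif4a2 measured 486, 270.1 and 448 CPM in the castrated and 321 and 674 CPM in the intact samples. These groups overlapped, and the log2 fold change of Eif4a2, -0.31 ± 0.43 (SE), was 0.28 without intact replicate 2, -0.08 without castrated replicate 2 and -0.73 without intact replicate 1. Per length, the ratio of Eif4a1 to Eif4a2 was 2.41, 4.35 and 2.12 in the castrated and 4.23 and 1.82 in the intact samples, so it varied within both groups. Small nucleolar RNA genes lie within Eif4a2, Eif4g1 and Eif5, and the strand setting of the counting was not stated.

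The cap-binding protein gene Eif4e measured 112, 103 and 80.5 CPM in the castrated and 141 and 104 CPM in the intact samples, with overlap and a log2 fold change of -0.31 ± 0.24 (SE) that was -0.56 without intact replicate 2 and -0.06 without intact replicate 1. Eif4g1, the main scaffold, measured 456, 436 and 446 CPM in the castrated and 545 and 511 CPM in the intact samples. The castrated samples were again below both intact samples, with a log2 fold change of -0.24 ± 0.21 (SE). The helicase cofactors Eif4b and Eif4h had log2 fold changes of -0.18 and 0.06, and the other scaffolds Eif4g2 and Eif4g3 had -0.05 and 0.13. Eif4e2, a cap-binding protein that competes with eIF4E, measured 83.2, 91.4 and 85.9 CPM in the castrated and 104 and 106 CPM in the intact samples without overlap. Eif4e1b, a germ-cell paralog, had counts in intact replicate 2 alone, and only 2 of them.

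Eif4e3 (chr6:99625137-99666771), which encodes a further member of the cap-binding family, was opposite in sign to most of its relatives. It measured 29.4, 39.5 and 35.8 CPM in the castrated and 9.81 and 19.0 CPM in the intact samples. All castrated samples were above both intact samples, although the intact values themselves differed, and the means were 34.9 ± 5.11 CPM (SD, n = 3) in castrated and 14.4 ± 6.47 CPM (SD, n = 2) in intact tumors. The log2 fold change was 1.28 ± 0.36 (SE, edgeR unadjusted p = 0.0155, adjusted p = 0.290), and it ranged from 0.90 to 1.79 when single samples were left out. DESeq2 called this gene (adjusted p = 0.0285) as the only 1 of the 48 past both thresholds, at a background of 6.77% of all genes called. Over the 5 samples it remained a rare message, at 24.3 TPM against 48.4 TPM for Eif4e.

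The eIF4E-binding proteins hold eIF4E away from eIF4G or change its place in the cell. Of the 3 tested, 2 had lower values in castrated tumors and 1 a higher value, with a median log2 fold change of -0.43 that was -0.10 without intact replicate 2, and Eif4ebp3 had too few counts to test. Eif4ebp1, the best studied of them, measured 20.8, 27.4 and 34.3 CPM in the castrated and 19.3 and 14.9 CPM in the intact samples, with all castrated samples above both intact samples. Its log2 fold change was 0.68 ± 0.31 (SE, edgeR adjusted p = 0.371). Eif4ebp2 measured 239, 251 and 261 CPM in the castrated and 261 and 578 CPM in the intact samples, and its log2 fold change of -0.75 ± 0.36 (SE) was -0.10 without intact replicate 2 and -1.19 without intact replicate 1. Eif4enif1, which takes eIF4E into the nucleus, measured 65.7, 85.0 and 71.6 CPM in the castrated and 107 and 92.8 CPM in the intact samples and was lower in every castrated sample. Per length, the ratio of Eif4ebp1 to Eif4e was 0.966, 1.38 and 2.22 in the castrated and 0.715 and 0.748 in the intact samples. The ratio of Eif4ebp2 to Eif4e was higher, at 6.08, 6.95 and 9.29 in the castrated and 5.30 and 15.9 in the intact samples, and overlapped between the groups. These ratios are given as values, and an exact permutation test of 3 against 2 samples could not have reached 0.05.

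**Figure D4:**
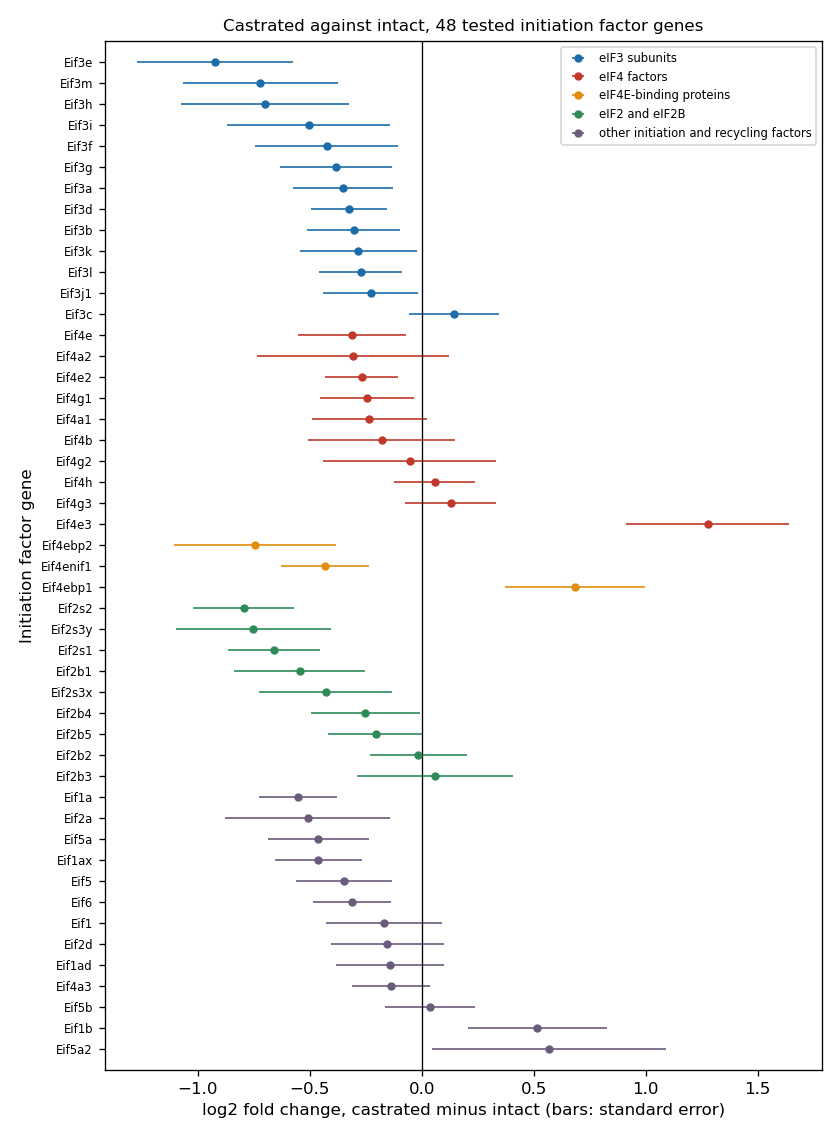
Points give the log2 fold change of castrated minus intact tumors for the 48 tested genes, colored by family, and bars give the standard error from edgeR. Most points lie left of 0, from -0.92 for Eif3e to 0.14 for Eif3c among eIF3 subunits, and Eif4e3 is the point farthest to the right, at 1.28.

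Among the remaining factors, 10 of 13 had lower values in castrated tumors. Their median log2 fold change was -0.17, and -0.27 and -0.28 without castrated replicates 1 and 2. Eif1a (chr18:46597704-46610225), which opens the small subunit for scanning, measured 132, 148 and 126 CPM in the castrated and 203 and 195 CPM in the intact samples. The intact samples were alike and no castrated sample reached them, with means of 135 ± 11.4 CPM (SD, n = 3) in castrated and 199 ± 5.96 CPM (SD, n = 2) in intact tumors. Its log2 fold change was -0.55 ± 0.17 (SE, edgeR unadjusted p = 0.0228, adjusted p = 0.301). The X-linked Eif1ax, with the same role, measured 137, 115 and 103 CPM in the castrated and 162 and 163 CPM in the intact samples. Eif5, which triggers GTP hydrolysis by eIF2, had a log2 fold change of -0.35 and Eif5b, which joins the large subunit, one of 0.04. Eif1, which guards start codon choice, measured 359, 435 and 352 CPM in the castrated and 505 and 353 CPM in the intact samples, while its paralog Eif1b measured 34.2, 47.7 and 33.3 CPM in the castrated and 32.9 and 20.8 CPM in the intact samples and was higher in every castrated sample.

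Eif5a, the hypusine-bearing factor that relieves stalled ribosomes, measured 449.7, 405 and 355 CPM in the castrated and 568 and 543 CPM in the intact samples. No overlap was seen between the groups, and the log2 fold change was -0.46 ± 0.23 (SE, edgeR adjusted p = 0.389). Its paralog Eif5a2 measured 7.61, 17.3 and 11.6 CPM in the castrated and 11.2 and 5.25 CPM in the intact samples, with overlap, and had the highest log2 fold change of these 13 genes at 0.57 ± 0.52 (SE), which was 0.08 without intact replicate 2, 0.23 without castrated replicate 2 and 1.23 without intact replicate 1. Eif6, which keeps the large subunit from joining too early, measured 55.1, 58.9 and 60.6 CPM in the castrated and 68.0 and 76.5 CPM in the intact samples, with a log2 fold change of -0.31 ± 0.17 (SE). Eif2a, a separate initiator tRNA-binding protein despite its name, measured 87.9, 85.3 and 102 CPM in the castrated and 78.8 and 182 CPM in the intact samples and was thus high in intact replicate 2 alone. Eif4a3, a helicase of the exon junction complex, Eif2d, which acts in noncanonical initiation and recycling, and Eif1ad, which carries an eIF1A domain, had log2 fold changes of -0.14, -0.15 and -0.14.

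The difference between the 2 intact tumors was larger than that between the groups for part of these genes. In 7 of 48 factors (14.6%), intact replicate 2 exceeded intact replicate 1 by more than 1 on the log2 scale, as in 12.2% of all tested genes and 89.5% of the ribosomal protein genes. They were Eif3e, Eif3h, Eif3i, Eif3m, Eif4a2, Eif4ebp2 and Eif2a. The median over all 48 factors was 0.15, compared with 0.06 over all genes and 1.52 over ribosomal protein genes. Whether this sample differed in tissue makeup or in library was not tested.

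**Figure D5:**
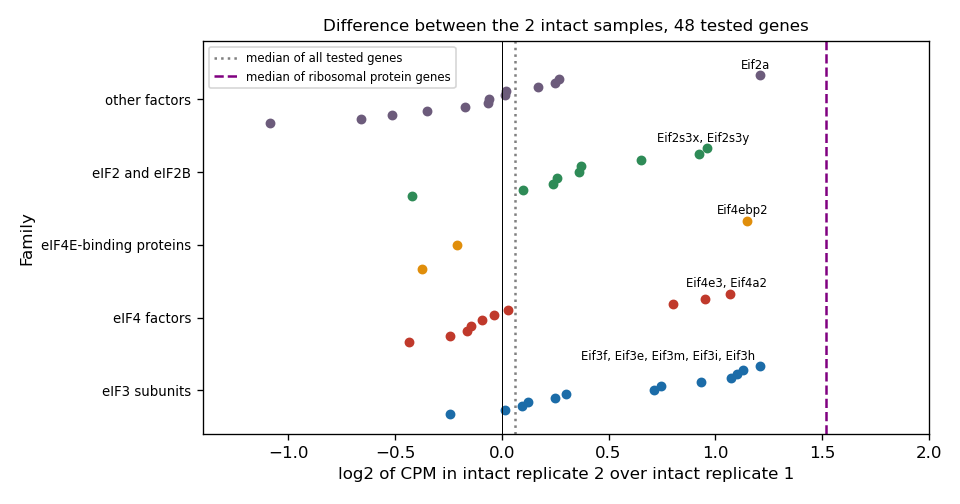
Points give the log2 of the CPM in intact replicate 2 over that in intact replicate 1 for the 48 tested genes, by family, with lines at the medians of all tested genes (dotted) and of ribosomal protein genes (dashed). A group of eIF3 genes with Eif4a2, Eif4ebp2 and Eif2a lies beyond 1, and the remaining factors range from -1.09 to 0.96.

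Genes that regulate initiation gave a similar picture, with 19 of 24 lower in castrated tumors and a median log2 fold change of -0.27. At an unadjusted p under 0.05 in edgeR, 1 of the 24 was higher (4.17%, against 8.74% of all genes) and 2 were lower (8.33%, against 6.28%), so these shares are near the background or under it. The higher gene was Mknk1, a kinase that phosphorylates eIF4E, with 33.8, 34.2 and 35.5 CPM in the castrated and 19.3 and 24.2 CPM in the intact samples. The S6 kinase gene Rps6kb1 was lower, with 71.1, 70.1 and 55.5 CPM in the castrated and 95.7 and 90.8 CPM in the intact samples, and so was the ribosome recycling gene Abce1, with 174, 157 and 146 CPM in the castrated and 213 and 243 CPM in the intact samples. No adjusted p in this list was below 0.302. Without castrated replicate 2 or 3, 0 of the 24 had an unadjusted p under 0.05 in edgeR. Without castrated replicate 1, 0 were higher and 1 was lower at that p. The median over the 24 genes was -0.26 without intact replicate 2 and -0.21 without intact replicate 1. The kinases of eIF2 differed in sign, with log2 fold changes of 0.26 for Eif2ak1, -0.36 for Eif2ak2, -0.11 for Eif2ak3 and -0.45 for Eif2ak4. Mtor itself stood at -0.01, and Pdcd4, an inhibitor of eIF4A, at 0.57 ± 0.30 (SE).

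Of 9 genes listed as elongation and release factors, 8 had lower values in castrated tumors, with a median log2 fold change of -0.35. The 1 with a higher value was Eef2k, a kinase that acts on eEF2, at 0.33 ± 0.50 (SE). Of the 9 genes, 7 had their highest value in intact replicate 2. Without intact replicate 2, 5 were lower and 4 higher, with a median of -0.22, and without intact replicate 1 all 9 were lower, with a median of -0.61. Eef1b2, an exchange factor for the tRNA-delivering eEF1A, measured 582, 427 and 509.6 CPM in the castrated and 655 and 2237 CPM in the intact samples, so that it followed the ribosomal protein genes. The ribosomal protein genes had a median log2 fold change of -1.09, with all 76 lower in castrated tumors and highest in intact replicate 2. Without that sample their median was -0.21, with 60 lower and 16 higher, and without intact replicate 1 it was -1.63.

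Marker genes of other cell types and of proliferation were read from the same test, and their counts at an unadjusted p under 0.05 in edgeR stand against the backgrounds of 8.74% higher and 6.28% lower over all genes. All 8 proliferation markers were lower in castrated tumors at this p, with sums of 56.3, 78.6 and 107 CPM in the castrated and 252 and 343 CPM in the intact samples. Mki67 was the most abundant of them in every sample but castrated replicate 1, where it was Top2a. All 8 macrophage markers were higher at this p, with sums of 1025, 2611 and 1325 CPM against 542 and 593 CPM, and the most abundant was Cd68 in castrated replicates 2 and 3, C1qa in castrated replicate 1 and intact replicate 2 and Mrc1 in intact replicate 1. All 7 smooth muscle markers were higher at this p, with sums of 410, 726 and 662 CPM against 209 and 151 CPM, led by Acta2 in the castrated and Tagln in the intact samples.

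Of 11 adipocyte markers, 6 were higher at an unadjusted p under 0.05 and 0 lower. Their sum was high in castrated replicates 2 and 3 alone, at 1319.9 and 1289.6 CPM against 138, 138 and 159 CPM in castrated replicate 1 and the intact samples, with Car3 the most abundant in the former and Pnpla2 in the latter. Lep was at 0 in castrated replicate 1 and both intact samples. Of 6 fibroblast markers, 3 were higher at this p (Dcn, Lum and Pdgfra), and the sums were 4326, 5416 and 7188 CPM against 4137 and 2469 CPM, with Dcn the most abundant in castrated replicates 2 and 3 and Col3a1 in the other samples. Of 6 T cell markers, 0 passed this p in edgeR, with sums of 18.9, 50.5 and 51.7 CPM against 12.7 and 38.7 CPM, and the most abundant was Cd4 in castrated replicates 2 and 3, Lck in castrated replicate 1 and intact replicate 1 and Cd8a in intact replicate 2. Skeletal muscle markers summed to no more than 5.46 CPM in any sample, with Myh1 at 0 in all 5. Prostate epithelial markers overlapped between the groups in all 10 tested genes, of which 1 was lower at this p. Their sums were 3344, 3168 and 4171 CPM against 4556 and 4321 CPM, with Krt8 the most abundant by the mean over samples. The sums of the intact samples were close, unlike their values for Krt5, Krt14, Trp63 and Hoxb13. Without intact replicate 2, 6 of the 10 prostate epithelial markers were higher and 4 lower, their median log2 fold change was 1.67 against -0.24 with all samples, and the T cell median was 3.62 against 0.60. By sign, all 8 proliferation markers were then lower, and all 7 smooth muscle and all 8 macrophage markers were higher. Of the adipocyte markers 10 were then higher and 1 lower, of the T cell markers 5 and 1, and of the fibroblast markers 3 and 3. Without intact replicate 1, all 8 macrophage markers were higher, and of 10 tested adipocyte markers 9 were higher and 1 lower. The marker counts at an unadjusted p under 0.05 rest on both intact samples, as 1 intact sample alone gives no spread within its group. The part of these cell types and of proliferation in the values of the initiation factors was not tested.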

How the data were processed

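Tumor RNA of 3 castrated and 2 intact TripleTg mice was sequenced from ribosomal RNA-depleted, paired-end libraries. Reads were trimmed with Trimmomatic 0.39, aligned to mm10 with STAR 2.7.9 and counted per gene with HTSeq 2.0.2, as the submitters' processing notes and the methods state, and the authors deposited unnormalized read counts per gene. The strand setting was not given in the sources used here. The deposited gene length, in kilobases, served to compute TPM.

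Groups follow the sample labels, and 0 sample columns were left unused. Counts were analyzed in R 4.3.3 with edgeR 4.0.16 (quasi-likelihood F-test, TMM, CPM above 1 in at least 2 samples, Benjamini-Hochberg adjustment over all 14612 tested genes), after the design of the study, whose methods name normalized values as input where raw counts were used here. The standard error is the log2 fold change over the square root of F. Alternatives were DESeq2 1.42.0, limma voom 3.58.1, the likelihood ratio test, other scalings and filters, the replicate block and leaving out each sample. The older quasi-likelihood fit, and leaving out samples for the other gene lists, were added after seeing the data. Procedures were tested on simulated data.

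The genes and lists were chosen with earlier results of these data known. Every factor is named. Full values are given for the lowest and highest fold change in each family and for Eif4a1, Eif4a2, Eif4e, Eif4g1, Eif4ebp1, Eif2s1, Eif5a, Eif6, Eif3e and Eif3h. Values of other genes were added where they illustrate a pattern, after they were seen. Coordinates are those of the count table (mm10) and RefSeq (GRCm38.p6), counted from 1. One prostate epithelial marker is counted in its list but not reported here by itself.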

Additional observations from a re-analysis of the deposited data

How the results depend on the processing

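The common dispersion over the 5 samples was 0.238. The scalings, filters, limma voom and the older quasi-likelihood fit called 0 factors. Under the scalings, 39 of 48 factors were lower, with CPM above 1 in all 5 samples 38 of 48, and without a filter 41 of 51. Of all tested genes, between 50.2% and 52.6% were lower under these settings. DESeq2 called 989 genes and 1 factor (Eif4e3), and the likelihood ratio test called 369 genes, with 3 factors at an unadjusted p under 0.05. Beside Eif4e3, Eif2s2 and Eif1a had a DESeq2 adjusted p of 0.0304 and 0.0450, with log2 fold changes under the size threshold. With the replicate number as a block, 975 genes had an unadjusted p under 0.05 with an absolute log2 fold change above 1, and 1 factor (Eif4e3) had an unadjusted p under 0.05. Beyond the replicate number, the labels name no pairing. Between the groups, the deviations of replicates 1 and 2 from their group means had correlations of 0.17 and -0.03. The intact deviations mirror each other, so these correlations cannot show whether replicates share a batch.

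When each sample was left out in turn, the genes called ranged from 0 to 1, the genes at an unadjusted p under 0.05 with an absolute log2 fold change above 1 from 867 to 2570, and the factors at an unadjusted p under 0.05 from 1 (without castrated replicate 3) to 15 (without intact replicate 1). Median log2 fold changes ranged from -0.36 to -0.17 over all factors, from -0.59 to -0.11 for eIF3, from -0.22 to -0.10 for the eIF4 factors, from -0.54 to -0.10 for the eIF4E-binding proteins, from -0.69 to -0.23 for eIF2 and eIF2B and from -0.28 to -0.18 for the other factors. The sign of Eif2b3 turned in this range, from -0.21 to 0.38, and that of Eif4a2, from -0.73 to 0.28. The value without castrated replicate 1 was -0.17 for Eif2b3. The cause was not tested.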

Other observations

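Eif3e and Eif3h both lie on chromosome 15, and most tested genes near them had no such high value in intact replicate 2. Over 22 tested genes within 5 Mb of Eif3e, the median log2 of the CPM in intact replicate 2 over intact replicate 1 was -0.26, and over 18 tested genes within 5 Mb of Eif3h it was -0.09. The values for Eif3e and Eif3h themselves were 1.07 and 1.21, and the median over 581 tested genes of chromosome 15 that are not initiation factors was -0.02. Of these neighbors, 1 of the 22 (4.55%) and 1 of the 18 (5.56%) exceeded 1 on this scale. The share was 12.2% over all tested genes and 9.81% over the 581 genes. The other initiation factors on chromosome 15, Eif3d, Eif3l and Eif4b, stood at 0.01, 0.25 and 0.80.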
